A study of Mus musculus with 3 samples.

Results

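Nucleated cells show fragments of their own proteins on major histocompatibility complex (MHC) class I molecules, and the genes described here build that display. They are 10 of the 27998 genes in the count tables, chosen by name for their roles: *B2m*, *H2-K1*, *H2-D1*, *Tap1*, *Tap2*, *Tapbp*, *Psmb8*, *Psmb9*, *Psmb10* and *Nlrc5*. The choice was made with earlier results of these data known. All 10 were found in the tables of all 3 libraries. A class I molecule is a heavy chain, here H2-K1 or H2-D1, held by beta-2 microglobulin, the product of *B2m*. Proteasomes cut proteins into peptides, the transporter made of TAP1 and TAP2 moves the peptides into the endoplasmic reticulum, and tapasin, the product of *Tapbp*, loads them. *Psmb8*, *Psmb9* and *Psmb10* encode the inducible catalytic subunits of the immunoproteasome, and *Nlrc5* encodes a transactivator of class I genes. In the thymus these complexes carry the peptides against which CD8 T cells are selected, and cortical thymic epithelium has a further catalytic subunit of its own, Psmb11.

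The study counted RNA molecules in single cells of thymic lobes from C57BL/6 mouse embryos between embryonic day 13 and 13.5, after trypsin digestion. There was 1 library for each of 3 genotypes: a control library, labelled Wild type, a library labelled Tbx1neo2/neo2 and a Foxn11089/1089 library. The neo2 allele of *Tbx1* is hypomorphic through a neomycin cassette, and the 1089 allele of *Foxn1* is a small deletion. The number of embryos behind each library was not given, and the labels name no other allele or treatment. In this order the libraries held 6410, 5759 and 12447 cell barcodes with 82936619, 137498422 and 204655055 unique molecular identifiers (UMIs, 1 for each counted RNA molecule). Sets of 3 values are given in the same order throughout: control, labelled Tbx1neo2/neo2, Foxn11089/1089.

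The targeted genes were counted first. *Tbx1* had 1.39, 4.81 and 5.43 CPM (UMIs of the gene per 1e6 UMIs) over all kept cells, from 114, 656 and 1102 UMIs. The library labelled Tbx1neo2/neo2 therefore did not have fewer *Tbx1* counts than the control, and its label could not be checked by this gene. *Foxn1* had 38.4, 34.6 and 76.5 CPM, and counts taken near the 3′ end of a transcript cannot show a small deletion. Libraries shared few barcodes: 17 between the control and the library labelled Tbx1neo2/neo2, 18 between the control and Foxn11089/1089, and 28 between the last pair. Chance reuse of barcodes and shared cells cannot be told apart from these numbers.

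Cells with fewer than 200 genes, or with 20% or more of their UMIs from mitochondrial genes, were dropped, which left 5932, 5516 and 11772 cells. Kept cells were sorted by 4 surface markers: *Epcam* of epithelium, *Pdgfra* of mesenchyme, *Cdh5* of endothelium and *Ptprc* of hematopoietic cells. A cell was positive with at least 2 UMIs of a marker and at least 4 times as many as of the other 3 together, and cells with at least 10% hemoglobin UMIs were left out. Epcam-positive cells numbered 1978, 807 and 3842, and Pdgfra-positive cells 659, 1335 and 2170. Cdh5-positive cells were few, at 50, 93 and 103, and Ptprc-positive cells numbered 573, 296 and 301. Cells with at least 50% hemoglobin UMIs, 341, 363 and 2047 of them, served as red blood cells, which carry little class I RNA. Their values give a floor from free RNA or a low level. Hemoglobin takes at least 50% of their UMIs, so other RNA is diluted in them and this floor may be too low. The remaining 2331, 2622 and 3309 kept cells fell in no class. Each marker list holds the gene its class was sorted by, so its level there is partly fixed by the sorting. The 5 hematopoietic genes summed to 2043, 1957 and 2767 CPM in Ptprc-positive cells, and to 1890, 1764 and 2545 CPM without *Ptprc*. The 6 epithelial genes summed to 4577, 4767 and 2746 CPM in Epcam-positive cells, led in Foxn11089/1089 by *Epcam* itself at 1083 CPM. In Pdgfra-positive cells the 5 mesenchymal genes gave 4087, 5850 and 4723 CPM. In Cdh5-positive cells the 5 endothelial genes gave 1993, 3072 and 2292 CPM. Likely doublets stayed in, and 1 of the alternatives left them out.

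A level below is the CPM of a gene in the summed UMIs of a class, with a 95% Poisson interval. Intervals cover counting error only. Classes were compared with edgeR on 12 sums, 4 classes in 3 libraries, with the library as a block and p-values adjusted over 14722 genes. A call means an adjusted p under 0.05, and 9 of the 10 members passed the filter on low counts. Genotypes had 1 library each, so no test was made between them. Their ratios of CPM have exact conditional binomial 95% intervals, and a ratio counted as past the fold at 2-fold or more with at least 30 UMIs over both libraries.

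The shared light chain was well counted in each class. *B2m* stood at 220.4, 373 and 474 CPM in Ptprc-positive cells and at 143, 198 and 209 CPM in Cdh5-positive cells. Its level was 62.0, 89.6 and 72.0 CPM in Pdgfra-positive cells and 47.4, 62.4 and 38.1 CPM in Epcam-positive cells. The order of the classes was the same in each library, and red blood cells had 2.86, 4.62 and 3.59 CPM. *B2m* was 3.02 log2 units higher in Ptprc-positive than in Epcam-positive cells (SE 0.23, edgeR adjusted p = 2.52e-06, 3 of 3 libraries). It was 1.13 higher than in Cdh5-positive cells (edgeR adjusted p = 0.0016, 3 of 3 libraries). The neighbours at the low end, Epcam-positive and Pdgfra-positive cells, differed by -0.54 (edgeR adjusted p = 0.0601, lower in 3 of 3 libraries), which is not a call. Without the Foxn11089/1089 library this difference was called, at -0.39. Among single Ptprc-positive cells the median *B2m* level was 194, 324 and 423 CPM, and among Cdh5-positive cells it was 123, 179 and 218 CPM.

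The heavy chains were spread differently from the light chain. *H2-K1* had 64.5, 137 and 198 CPM in Ptprc-positive cells, 31.9, 57.3 and 15.4 CPM in Epcam-positive cells, and 12.4, 14.6 and 6.79 CPM in Cdh5-positive cells. *H2-D1* had 50.7, 129.8 and 199 CPM in Ptprc-positive cells, 44.6, 123 and 80.1 CPM in Cdh5-positive cells, and 14.2, 26.5 and 11.7 CPM in Epcam-positive cells. In Pdgfra-positive cells both were near the bottom, with 11, 78 and 57 UMIs of *H2-K1* and 7, 63 and 72 UMIs of *H2-D1*. So mesenchymal cells held *B2m* with little of either heavy chain, and endothelial cells held more *H2-D1* than epithelial cells in every library. Cdh5-positive cells exceeded Epcam-positive cells by 2.17 log2 units for *H2-D1* (edgeR adjusted p = 0.000929, 3 of 3 libraries). For *H2-K1* the same contrast was -1.73 (edgeR adjusted p = 0.0205, lower in 3 of 3 libraries). That call was lost without the control library (-1.60) and without the library labelled Tbx1neo2/neo2 (-1.53). It was also lost with the other markers at 0 (-1.32), with 1 UMI of the marker enough (-1.002), after thinning cells to 2000 UMIs (-1.34) and without parathyroid and thyroid cells (-1.70). Between Ptprc-positive and Cdh5-positive cells *H2-D1* differed by 0.77 (edgeR adjusted p = 0.0886, higher in 3 of 3 libraries), not a call.

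The share of *H2-K1* in the UMIs of both heavy chains put this in 1 number. It was 69.2%, 68.3% and 56.9% in Epcam-positive cells and 56.0%, 51.3% and 49.8% in Ptprc-positive cells. In Cdh5-positive cells it was 21.7%, 10.6% and 7.81%, with exact binomial 95% intervals of 10.9% to 36.4%, 8.01% to 13.7% and 5.50% to 10.7%. Within each library these lay below the intervals of the other 3 marker-positive classes, except that in the control they met that of Pdgfra-positive cells, 35.7% to 82.7%. *H2-K1* and *H2-D1* are close paralogs, reads that fit both are not counted, and counts of either may be low for that reason.

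The transporter subunits and tapasin stood highest in Ptprc-positive cells too. *Tap1*, a subunit of the peptide pump, had 13.5, 19.8 and 23.6 CPM in Ptprc-positive cells and 8.75, 11.1 and 3.14 CPM in Epcam-positive cells. *Tap2*, its partner, had 61.7, 69.0 and 37.7 CPM in Ptprc-positive cells and 5.74, 4.08 and 0.676 CPM in Epcam-positive cells. *Tapbp* had 28.1, 58.4 and 61.1 CPM in Ptprc-positive cells and 23.9, 37.8 and 11.5 CPM in Epcam-positive cells. The hematopoietic and epithelial levels were far apart for *Tap2* in every library and close in the control library for *Tapbp*, where the intervals were 25.1 to 31.3 and 22.2 to 25.6 CPM. In Pdgfra-positive cells there were 3, 63 and 35 UMIs of *Tap1* and 9, 31 and 13 of *Tap2*, while *Tapbp* had 5.09, 11.0 and 4.07 CPM. Cdh5-positive cells held 0, 4 and 3 UMIs of *Tap1*, 1, 15 and 13 of *Tap2* and 8, 69 and 62 of *Tapbp*. The 0 of 50 control cells with *Tap1* allow a share of cells with a UMI of up to 6%, at 3 counts.

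Tests placed *Tap2* 4.54 log2 units higher in Ptprc-positive than in Epcam-positive cells (SE 0.42, edgeR adjusted p = 1.02e-05, 3 of 3 libraries). *Tap1* was 1.61 higher (SE 0.42, edgeR adjusted p = 0.0079, 3 of 3 libraries) and *Tapbp* 1.31 higher (SE 0.34, edgeR adjusted p = 0.00742, 3 of 3 libraries). Without the Foxn11089/1089 library these were 0.95 for *Tap1* and 0.65 for *Tapbp*, still called, and after thinning *Tap1* lost its call (1.21). *Tap1* made up 60.4%, 73.1% and 82.3% of the UMIs of both transporter genes in Epcam-positive cells. In Ptprc-positive cells its share was 18.0%, 22.3% and 38.5%, lower than the epithelial share in each library.

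Among the immunoproteasome genes, *Psmb8* stood far higher in Ptprc-positive cells than in the other classes. *Psmb8* had 595, 379.6 and 374 CPM there and ranked 239, 350 and 381 among the 15790, 16576 and 15653 genes with a UMI. In Epcam-positive cells it had 19.2, 3.30 and 4.09 CPM, in Pdgfra-positive cells 7.94, 0.835 and 1.53 CPM, and in Cdh5-positive cells 12.4, 1.44 and 2.91 CPM. Ptprc-positive cells held 39.9%, 69.7% and 59.1% of all *Psmb8* UMIs, and cells in no class held 55.7%, 28.4% and 32.9%. The difference between Ptprc-positive and Epcam-positive cells was 6.40 log2 units (SE 0.42, edgeR adjusted p = 1.05e-06, 3 of 3 libraries). *Psmb9*, whose product takes the place of Psmb6, had 96.4, 78.8 and 112 CPM in Ptprc-positive cells and 37.3, 31.6 and 2.49 CPM in Epcam-positive cells. Pdgfra-positive cells had 11, 27 and 18 UMIs of *Psmb9* and Cdh5-positive cells 4, 3 and 3. The hematopoietic excess of *Psmb9* was 2.71 (SE 0.70, edgeR adjusted p = 0.007, 3 of 3 libraries), but 1.57 without the Foxn11089/1089 library, 3.34 without the control and 3.60 without the library labelled Tbx1neo2/neo2.

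*Psmb10*, whose product takes the place of Psmb7, was high in Epcam-positive cells. It had 299, 189 and 32.6 CPM there and ranked 489, 800 and 4271 among 18523, 18947 and 19971 genes. Ptprc-positive cells had 229.6, 162 and 206 CPM, Cdh5-positive cells 39.7, 21.8 and 24.4 CPM, and Pdgfra-positive cells 20.4, 16.7 and 14.6 CPM. Epithelial cells were thus above hematopoietic cells in both other libraries and below them in Foxn11089/1089. The difference of Ptprc-positive over Epcam-positive cells was 0.65 (SE 0.50, edgeR adjusted p = 0.283, higher in 1 of 3 libraries), and -0.08 without the Foxn11089/1089 library. Epcam-positive over Pdgfra-positive cells differed by 3.15 (edgeR adjusted p = 0.000933, 3 of 3 libraries).

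*Nlrc5*, the transactivator, was scarcely counted. Ptprc-positive cells held 4, 11 and 6 UMIs and Epcam-positive cells 5, 4 and 4, and this was the member removed by the filter. Pdgfra-positive and Cdh5-positive cells had 0 UMIs in each library. At 3 counts, those zeros allow shares of cells with a UMI of up to 0.455%, 0.225% and 0.138% among Pdgfra-positive cells and up to 6.00%, 3.23% and 2.91% among Cdh5-positive cells. In CPM the values were 0.353, 0.609 and 0.658 in Ptprc-positive and 0.148, 0.0942 and 0.0429 in Epcam-positive cells, with Poisson intervals that overlapped in the control and were apart in both other libraries. *Nlrc5* was not tested between classes.

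**Figure D1:**
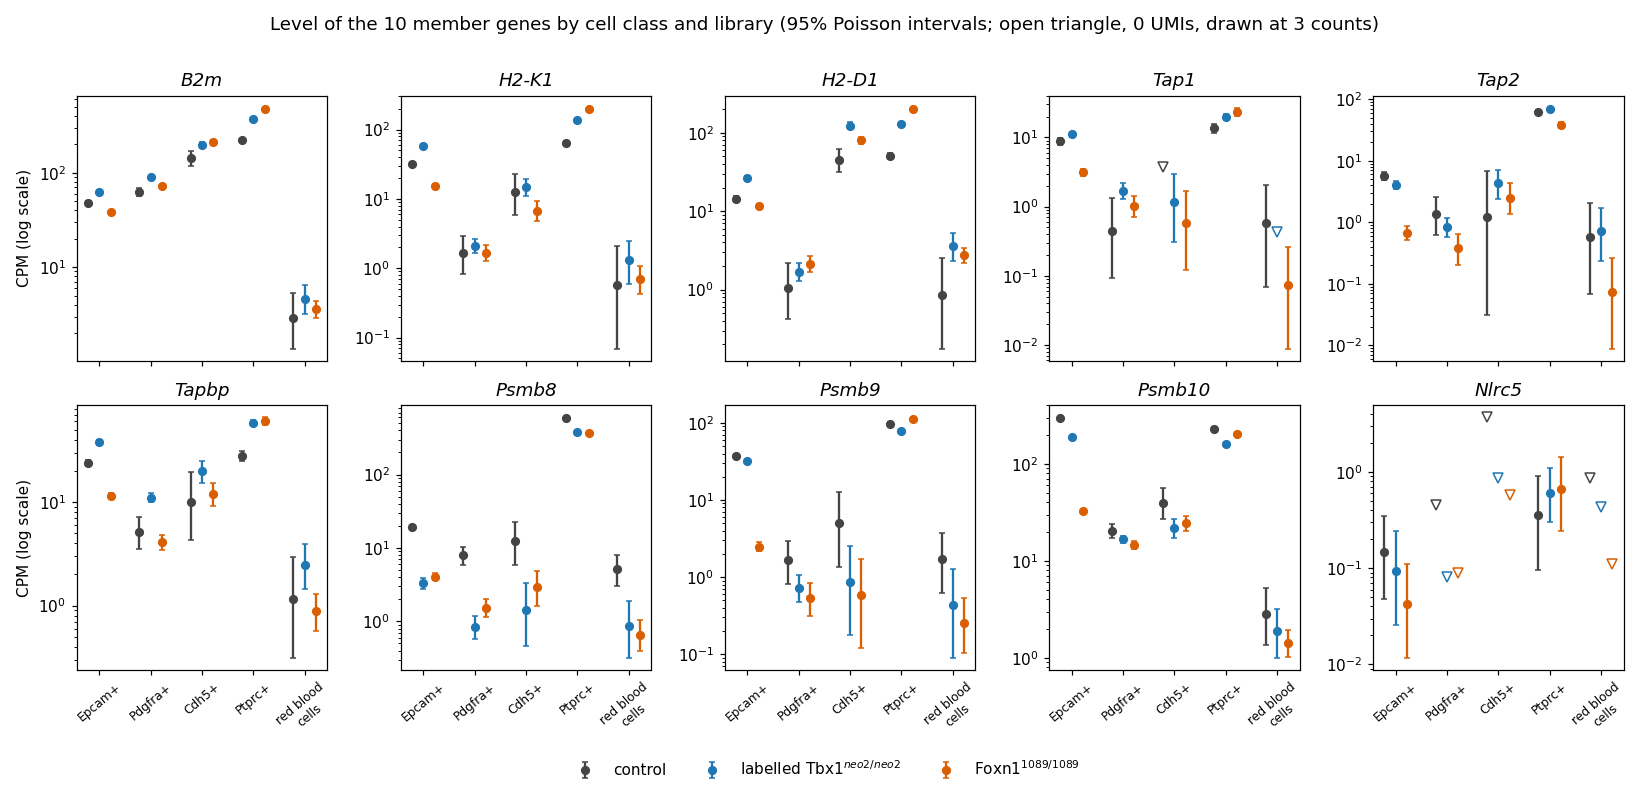
Level in CPM (vertical axis, log scale) of each member gene in Epcam-, Pdgfra-, Cdh5- and Ptprc-positive cells and in red blood cells (horizontal axis), with 1 point for each library and 95% Poisson intervals; open triangles mark 0 UMIs, drawn at the level of 3 counts. Psmb8 stands at 595, 379.6 and 374 CPM in Ptprc-positive cells, while Psmb10 in Epcam-positive cells stands at 299 CPM in the control and 32.6 CPM in the Foxn11089/1089 library.

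Counted over the tested members, 8 of 9 were called higher in Ptprc-positive than in Epcam-positive cells, against 27.1% of all 14722 genes. Against Pdgfra-positive cells 9 of 9 members were higher (all genes, 33.4%), and against Cdh5-positive cells 8 of 9 were (all genes, 28.1%). The median log2 difference of the members was 2.71, 6.45 and 3.93 in these contrasts, while that of all genes was -0.05, -0.02 and 0.11. The largest differences from Pdgfra-positive cells were those of *Psmb8* at 7.97 log2 units (edgeR adjusted p = 3.9e-07) and *Psmb9* at 7.26 (edgeR adjusted p = 4.42e-05), each higher in 3 of 3 libraries. Without the Foxn11089/1089 library the excess over Epcam-positive cells was 1.37 for *H2-K1* and 2.29 for *H2-D1*, down from 2.21 and 2.94, and the excess over Cdh5-positive cells was 3.21 for *H2-K1* and 5.82 for *Psmb9*, down from 3.93 and 6.60. The latter was 7.41 without the control.

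The other contrasts were more mixed. Epcam-positive over Pdgfra-positive cells gave 8 of 9 members higher, against 24.7% of all genes, with member and all-gene medians of 2.72 and 0.05. *Psmb9* led this contrast at 4.55 log2 units (edgeR adjusted p = 0.00141, 3 of 3 libraries), with 3.71 without the library labelled Tbx1neo2/neo2 and 5.15 without Foxn11089/1089. *Tap2* lost its call there without the control (1.71) and without the library labelled Tbx1neo2/neo2 (1.67), and after thinning (2.20). *Psmb8*, at 1.57, lost it with the other markers at 0 (0.95), without likely doublets (1.61) and without the replicate block (1.67). Cdh5-positive over Pdgfra-positive cells gave 5 of 9 higher, against 17.9% of all genes, but 2 with 1 UMI of the marker enough, 1 after thinning and 3 without the replicate block. *H2-K1* lost its call with 1 UMI enough (0.81) and after thinning (3.74), and *B2m* after thinning (0.97). The strongest was *H2-D1* at 5.68 (edgeR adjusted p = 9.58e-06, 3 of 3 libraries). *Tapbp*, at 1.18, lost its call without the control (1.27) and without the library labelled Tbx1neo2/neo2 (1.44), and *Tap2*, at 2.26 and higher in 2 of 3 libraries, lost it without the latter (2.19). *Psmb10*, at 0.74, gained a call without Foxn11089/1089 (0.65).

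Cdh5-positive over Epcam-positive cells split the members, with 2 of 9 higher (all genes, 18.2%) and 4 of 9 lower (all genes, 24.5%). The higher ones were *B2m*, at 1.89 log2 units, and *H2-D1*. The lower ones were *H2-K1*, *Tap1* at -3.34, *Psmb9* at -3.89 and *Psmb10* at -2.40. Of these, *Psmb9* and *Psmb10* were not called without the control (-4.06 and -1.96) or without the library labelled Tbx1neo2/neo2 (-2.83 and -1.92), and *Psmb10* was -3.08 without Foxn11089/1089. *Psmb9* also lost its call with the other markers at 0 (-3.64), with 1 UMI of the marker enough (-1.66) and after thinning (-8.31), and *Tap1* after thinning (-6.72). *Tapbp* differed by -0.73 and was called, at -1.11, only without Foxn11089/1089.

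Shares of cells with a UMI depend on depth, so each cell was also thinned to 2000 UMIs. Before thinning, the median UMIs per cell were 16582, 45900 and 20480 for Epcam-positive, 20213, 61782 and 27267 for Ptprc-positive and 8610, 18641 and 12501 for red blood cells. Shallower cells were left out of the thinned counts, 16, 8 and 53 Epcam-positive, 2, 0 and 1 Ptprc-positive and 9, 4 and 7 red blood cells. At equal depth 93.5%, 94.6% and 95.7% of Ptprc-positive cells had a UMI of at least 1 member, and without thinning 100% of them in each library. For Epcam-positive cells the thinned shares were 52.4%, 48.7% and 18.0%, and the unthinned ones 92.7%, 96.7% and 76.5%. Red blood cells gave 2.71%, 4.74% and 1.91% thinned, and 7.92%, 19.0% and 11.0% unthinned. The epithelial share was thus lowest in Foxn11089/1089 at both depths, and still above red blood cells. Depth includes hemoglobin, so at equal depth red blood cells have fewer UMIs left for other genes.

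Single members differed in this. *B2m* was seen in 36.3%, 49.7% and 62.0% of thinned Ptprc-positive cells and in 8.56%, 10.4% and 6.41% of Epcam-positive cells, against 0.602%, 1.67% and 0.784% of red blood cells. Unthinned, these *B2m* shares were 96.3%, 100% and 99.7%, then 47.4%, 83.3% and 47.3%, against 2.05%, 5.79% and 4.30%. *Psmb10* was seen in 40.4%, 26.9% and 6.23% of thinned Epcam-positive cells and in 84.2%, 83.4% and 41.9% unthinned. In Ptprc-positive cells it was seen in 39.9%, 26% and 33% thinned and in 93.7%, 97.6% and 91.7% unthinned, so the classes were apart in Foxn11089/1089 alone at equal depth. Its red blood cell shares were 0.301%, 0.279% and 0.343% thinned and 1.17%, 2.20% and 1.76% unthinned. *Psmb8* reached 69.2%, 47.3% and 47.3% of thinned Ptprc-positive cells (98.4%, 99.0% and 95.7% unthinned) and 1.94%, 0.125% and 0.290% of Epcam-positive cells. Its thinned red blood cell shares were 1.20%, 0% (0 of 359 cells, which allows up to 0.836%) and 0.196%, and their exact binomial 95% intervals overlapped the epithelial ones in each library. Unthinned, *Psmb8* was seen in 6.62%, 5.45% and 2.45% of Epcam-positive cells and in 2.93%, 1.65% and 0.879% of red blood cells, with intervals apart in each library. An unthinned Ptprc-positive cell showed a median of 6, 9 and 8 of the 10 members.

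Each immunoproteasome subunit takes the place of a constitutive one, and their counts can be set side by side within a library. *Psmb8* made up 55.1%, 51.8% and 48.9% of the UMIs of *Psmb8*, *Psmb5* and *Psmb11* in Ptprc-positive cells. In Epcam-positive cells its share was 2.10%, 0.610% and 1.11%, while *Psmb11*, the subunit of the thymoproteasome, held 24.9%, 20.8% and 2.98%. *Psmb9* held 24%, 21.9% and 26.8% of *Psmb9* plus *Psmb6* in Ptprc-positive cells and 7.49%, 7.84% and 0.637% in Epcam-positive cells. *Psmb10* held 75.6%, 51.7% and 16.0% of *Psmb10* plus *Psmb7* in Epcam-positive cells, and 72.2%, 47.9% and 53.5% in Ptprc-positive cells. A share also falls where *Psmb7* rises. In Ptprc-positive cells of Foxn11089/1089 *Psmb7* was at least 2-fold higher than in the control, while *Psmb10* had 229.6 CPM in the control and 206 CPM there. In Epcam-positive cells *Psmb7* was higher than in the control in both other libraries, short of 2-fold. The epithelial and hematopoietic shares of *Psmb10* were therefore far apart in Foxn11089/1089 and close in both other libraries. In Pdgfra-positive cells *Psmb10* held 18.7%, 10.8% and 9.05%, and in Cdh5-positive cells 41.6%, 13.8% and 12.8%.

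**Figure D2:**
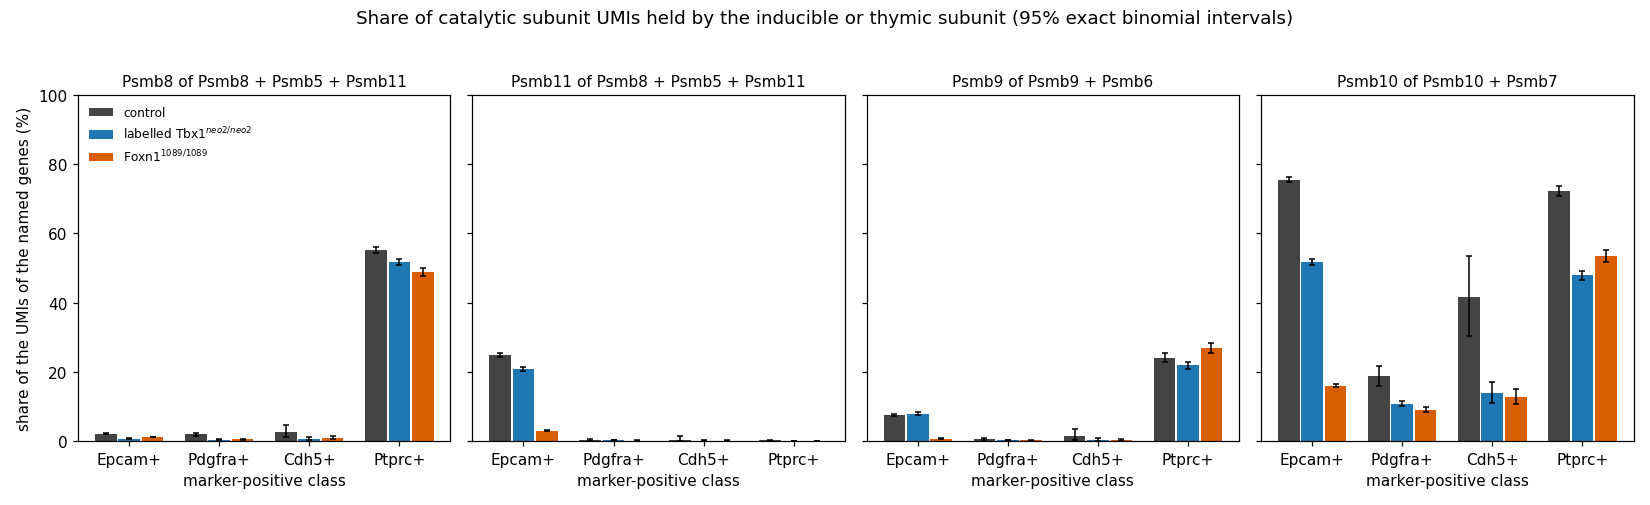
Share in percent (vertical axis, from 0) of the UMIs of the named catalytic subunit genes held by Psmb8, Psmb11, Psmb9 or Psmb10 in each marker-positive class (horizontal axis), with 1 bar for each library and exact binomial 95% intervals. In Epcam-positive cells Psmb10 holds 75.6%, 51.7% and 16.0%, and Psmb11 24.9%, 20.8% and 2.98%. A share depends on the counts of all the genes named, so it also falls where another of them rises.

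Foxn1 is a transcription factor of thymic epithelium. Both other libraries are set against the same control library, so their ratios are not independent. In Epcam-positive cells of the Foxn11089/1089 library, 7 of the 9 members tested were at least 2-fold lower than in the control and 0 higher, against 7.36% of 15056 genes lower and 19.6% higher. The median log2 ratio of all genes was 0.33 and that of the members -1.48. With median-of-ratios size factors the all-gene shares were 10.8% lower and 13.2% higher, and 7 members remained lower. With 1 UMI of the marker enough 5 of 9 were lower, and after thinning 6 of 8, against 8.21% and 5.5% of all genes. Summed over all 10 members the level was 487, 423 and 119.7 CPM, of which *Psmb10* alone gave 299, 189 and 32.6 CPM. Without *Psmb10* the sum was higher in the library labelled Tbx1neo2/neo2 than in the control, and still lower in Foxn11089/1089. *Psmb9* went from 37.3 to 2.49 CPM, a log2 ratio of -3.90 (interval -4.11 to -3.70), and -4.23 relative to the median gene. *Psmb10* went from 299 to 32.6 CPM, 9.17-fold lower (interval 8.80 to 9.55) with a log2 ratio of -3.20. *Tap2*, from 5.74 to 0.676 CPM, was 8.49-fold lower (interval 6.36 to 11.5). *Tap1* was 2.79-fold lower (interval 2.36 to 3.28), and *H2-K1* and *Tapbp* were each 2.07-fold lower. The members short of the fold were *B2m*, with a log2 ratio of -0.32, and *H2-D1*, with -0.28. The largest of these changes were those of *Psmb9*, *Psmb10* and *Tap2*, and the smallest those of the light chain and *H2-D1*.

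The median mitochondrial share of UMIs in Epcam-positive cells was 2.56%, 5.64% and 5.69%, and its part in these ratios was not tested. The epithelium of the libraries also differed in its kinds of cells. The 5 cortical markers summed to 1180.5, 1094 and 120.2 CPM in Epcam-positive cells, with *Ccl25* the most abundant and none at 0. That list holds *Psmb11*. The 5 medullary-like markers summed to 1087, 1245 and 323 CPM, led by *Krt5*, and the 8 red blood cell genes to 351, 239 and 2233 CPM, led by *Hbb-bs*, none at 0. The 5 mesenchymal markers gave 44.4, 99.3 and 152 CPM and the 5 macrophage markers 5.94, 6.57 and 23.4 CPM. The 5 dendritic markers gave 901, 513 and 56.7 CPM. They were led by *Cd74* at 510 CPM in the control and by *H2-Ab1* at 234 and 35.2 CPM in the others. That list holds MHC class II genes, so its sum is not a measure of dendritic cells here. The 5 innate-like lymphoid markers gave 38.1, 8.32 and 5.73 CPM, and no gene of either list was at 0. The part of all these lists in the ratios was not tested. The 5 parathyroid markers summed to 969, 1.20 and 8784 CPM, led in Foxn11089/1089 by *Pth* at 6333 CPM, and *Gcm2* was at 0 in the library labelled Tbx1neo2/neo2. The 5 thyroid markers summed to 3.43, 293 and 5.28 CPM, with none at 0. Leaving out cells assigned to parathyroid or thyroid markers, a choice made after seeing the data, kept 7 members lower, against 7.78% of all genes. *Psmb9* was then at -3.92, *Psmb10* at -3.06 and *H2-K1* at -1.71. In cells assigned to cortical markers, 1401, 524 and 610 of them, 5 members stayed past the fold, against 6.45% of all genes lower. There *Psmb10* was at 354, 267 and 63.1 CPM, a log2 ratio of -2.49, and *Psmb9* at 40.9, 45.1 and 3.73 CPM, a ratio of -3.46. *H2-K1* at -0.77 and *Tapbp* at -0.86 fell short in cortical cells, and *B2m* and *H2-D1* turned to 0.23 and 0.33. In medullary-like cells, 267, 105 and 622 of them, *Psmb10* had 164, 53.8 and 20.8 CPM, *Psmb9* 27.7, 7.98 and 1.95 CPM and *H2-K1* 68.8, 88.5 and 12.5 CPM. The low values of *Psmb9* and *Psmb10* in Foxn11089/1089 were therefore present in both subsets. Most Epcam-positive cells of that library lay outside them, with 836 assigned to parathyroid markers and 1768 to no subset, against 25 and 281 in the control. In cells of no subset *Psmb10* had 173, 127 and 32.2 CPM and *Psmb9* 30.5, 21.6 and 2.23 CPM.

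In the library labelled Tbx1neo2/neo2 fewer epithelial members were past the fold. Of 9 tested, 1 was at least 2-fold lower and 0 higher, against 4.57% of 14178 genes lower and 16.9% higher, and the all-gene median log2 ratio was 0.40. With median-of-ratios size factors those shares were 9.23% and 7.86%, and 2 members were lower, *Psmb8* and *Psmb10*. With 1 UMI of the marker enough 0 members were lower and 1 higher, against 3.56% and 19.6% of genes. *H2-K1* had 31.9 CPM in the control and 57.3 here, at a log2 ratio of 0.85 (interval 0.74 to 0.95), and *H2-D1* had 14.2 and 26.5 CPM, at 0.91 (interval 0.75 to 1.06). Relative to the median gene these were 0.45 and 0.51. In cortical cells alone, chosen after seeing the data, *H2-D1* reached 1.51 and *H2-K1* 1.30, both past the fold, and without parathyroid and thyroid cells 1.03 and 1.01. *Psmb10* had a ratio of -0.66 (interval -0.70 to -0.62), and *Psmb9* -0.24, which turned to 0.14 in cortical cells and was -0.03 without parathyroid and thyroid cells. In medullary-like cells *Psmb9* had 27.7 CPM in the control and 7.98 here, and *Psmb10* 164 and 53.8. Over the whole class the heavy chains and the immunoproteasome genes were thus on opposite sides of the median gene.

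*Psmb8* was the member past the fold in both epithelial comparisons, and its counts outside Ptprc-positive cells are given beside hematopoietic RNA. Its log2 ratio in Epcam-positive cells was -2.54 (interval -2.82 to -2.28) in the library labelled Tbx1neo2/neo2 and -2.23 (interval -2.42 to -2.05) in Foxn11089/1089. The 5 hematopoietic markers, none at 0, summed to 45.8, 13.7 and 29.5 CPM in the same cells, led by *Rac2* at 17.3 CPM in the control and by *Coro1a* at 4.24 and 9.65 CPM in the others. For each UMI of 4 of these markers, all but *Ptprc*, there were 0.430, 0.259 and 0.147 *Psmb8* UMIs in Epcam-positive cells. In Ptprc-positive cells the figures were 0.315, 0.215 and 0.147. The epithelial value was above the hematopoietic one in the control, with intervals of 0.392 to 0.472 and 0.306 to 0.324. The intervals overlapped in both other libraries. In control Epcam-positive cells assigned to no subset, 281 of them, *Psmb8* had 74.6 CPM beside 127 CPM of *Cd3g*, a T cell gene. In Pdgfra-positive cells the ratio of *Psmb8* was -3.25 (interval -3.94 to -2.58) and -2.37 (interval -2.95 to -1.79), and the hematopoietic list there was 24.4, 4.71 and 13.8 CPM. In Cdh5-positive cells the sum of 4 markers was 64.5, 27.8 and 24.3 CPM beside 12.4, 1.44 and 2.91 CPM of *Psmb8*. Both were highest in the control in these 3 classes. Red blood cells had 5.15, 0.866 and 0.659 CPM of *Psmb8*, also highest in the control. In cortical cells alone the epithelial ratios of *Psmb8* were -1.80 and -1.23. With 1 UMI of the marker enough, 0 members were lower in Epcam-positive cells of the library labelled Tbx1neo2/neo2. The part of hematopoietic cells, their RNA or free RNA in these ratios was not tested.

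In Pdgfra-positive cells few members had UMIs to spare. The median mitochondrial share of UMIs there was 2.79%, 6.32% and 5.78%, and the 5 pericyte and smooth muscle markers, none at 0, summed to 321, 1003 and 289 CPM, led by *Myl9*, *Acta2* and *Myl9*. The 8 red blood cell genes, none at 0, summed to 232, 294 and 1639 CPM, led by *Hbb-bs*. The part of these in the ratios was not tested. In the library labelled Tbx1neo2/neo2, 2 of 9 tested were higher and 2 lower, against 17.2% and 3.47% of 13413 genes, with an all-gene median of 0.37. Median-of-ratios size factors gave 11.0% and 7.16%, with 1 member higher. The higher ones were *Tap1*, at 1.92 with a wide interval (0.30 to 4.23), and *Tapbp*, at 1.11 (interval 0.60 to 1.66). With 3 UMIs in the control and 63 here, *Tap1* reached 30 UMIs only through the library where it was higher. No support is drawn from its place in the count. The lower ones were *Psmb8* and *Psmb9*, the latter at -1.18 (interval -2.24 to -0.02). With 1 UMI of the marker enough *Psmb9* turned to 0.39 and 0 members were lower. In Foxn11089/1089, 2 of 7 were higher and 1 lower, against 6.64% and 3.92% of 12900 genes, with a median of 0.20 (4.51% and 5.13% with median-of-ratios size factors). The higher ones, *Tap1* at 1.20 and *H2-D1* at 1.02, had intervals that reached below 0, and *H2-D1* turned to -0.30 when the other markers had to be 0. From the control to Foxn11089/1089 they had 3 and 35 UMIs of *Tap1* and 7 and 72 of *H2-D1*. Both thus reached 30 UMIs only through the library where they were higher, and no support is drawn from their count. *H2-D1* had 1.05, 1.70 and 2.12 CPM in this class and 0.859, 3.61 and 2.75 CPM in red blood cells. *B2m*, well counted in this class with 414, 3326 and 2443 UMIs, had ratios of 0.53 and 0.22, close to the median gene.

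Cdh5-positive cells allowed 5 members in each comparison, with median mitochondrial shares of 3.31%, 7.46% and 5.01%. The 5 mesenchymal markers summed to 21.1, 115 and 222 CPM in these cells, led by *Col3a1*, and the 5 pericyte and smooth muscle markers to 12.4, 71.5 and 81.9 CPM, led by *Myl9*. In the control *Pdgfra*, *Twist1*, *Prrx1*, *Rgs5* and *Actg2* were at 0. The 8 red blood cell genes, none at 0, summed to 3385, 335 and 3189.6 CPM, led by *Hba-x*, *Hbb-y* and *Hbb-bs*. The part of these in the ratios was not tested. In the library labelled Tbx1neo2/neo2, 1 of 5 was higher and 0 lower, against 26% and 4.16% of 9142 genes and a median of 0.43 (16.7% and 9.70% with median-of-ratios size factors). It was *H2-D1*, from 44.6 to 123 CPM, at 1.46 (interval 0.97 to 2), or 1.03 relative to the median gene. In Foxn11089/1089, 0 of 5 were past the fold either way, against 15.9% higher and 4.36% lower of 9235 genes, with a median of 0.29 (11.5% and 6.69% with median-of-ratios size factors). *H2-D1* there was at 0.84 (interval 0.35 to 1.38) and *B2m* at 0.55. These shares of members are near those of all genes.

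Ptprc-positive cells had higher heavy chain levels in both other libraries than in the control. The median mitochondrial share of UMIs in these cells moved with that contrast, at 2.82%, 5.62% and 5.22%, and its part was not tested. In Foxn11089/1089, 4 of 9 members were at least 2-fold higher and 0 lower, against 11.3% and 5.36% of 11027 genes and a median of 0.24. Median-of-ratios size factors gave 7.15% and 8.71%, and 2 members higher, *H2-K1* and *H2-D1*. *H2-D1* went up from 50.7 to 199 CPM, at 1.97 on the log2 scale (interval 1.83 to 2.11), and *H2-K1* from 64.5 to 198 CPM, a ratio of 1.61 (interval 1.49 to 1.74). *B2m* had 1.10 (interval 1.03 to 1.18) and *Tapbp* 1.12 (interval 0.92 to 1.32). The immunoproteasome genes and *Tap2* were not past the fold, with *Psmb8* at -0.67, *Psmb10* at -0.16 and *Tap2* at -0.71. *Psmb9* was at 0.22, and at -0.05 with median-of-ratios size factors. In the library labelled Tbx1neo2/neo2, 3 of 9 were higher and 0 lower, against 13.1% and 2.82% of 11597 genes and a median of 0.36. With median-of-ratios size factors these were 5.73% and 6.67%, and 1 member was higher. *H2-D1* was at 1.36 (interval 1.22 to 1.49), *H2-K1* at 1.09 (interval 0.97 to 1.21) and *Tapbp* at 1.06 (interval 0.88 to 1.24). Of these, *H2-D1* kept the fold with median-of-ratios size factors, at 1.03. With either other marker rule, after thinning, in T lineage cells alone or by per-cell means, 2 were past the fold. Of all genes 15% were higher with the other markers at 0 and 20.5% with 1 UMI of the marker enough. After thinning, in T lineage cells and by per-cell means these shares were 10.9%, 10.3% and 13.8%. With 1 UMI enough the share of members was near that of all genes. In Foxn11089/1089 3 were past the fold under either other marker rule. The all-gene shares there were 11.7% with the other markers at 0 and 24% with 1 UMI enough.

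The hematopoietic cells also differed between libraries. In Ptprc-positive cells the 5 T lineage markers summed to 725, 855 and 262 CPM, led by *Cd3g* in the first pair and *Tcf7* in Foxn11089/1089. The 5 macrophage markers gave 150.03, 502 and 499.9 CPM, led by *C1qb*, the 5 dendritic markers 179, 52.3 and 675 CPM, led by *Cd74*, and the 5 innate-like lymphoid markers 722, 868 and 675 CPM. The 8 red blood cell genes gave 1756, 636 and 1851 CPM, led by *Hbb-bt* in the first pair and *Hbb-y* in Foxn11089/1089. None of these markers was at 0, and their part in the ratios was not tested. In cells assigned to T lineage markers, 240, 136 and 74 of them, *B2m* had 168, 272 and 289 CPM and *H2-K1* 57.2, 127 and 123 CPM. *H2-D1* in these cells had log2 ratios of 1.46 in the library labelled Tbx1neo2/neo2 and 1.78 in Foxn11089/1089, and *H2-K1* 1.15 and 1.11. *B2m* at 0.78 and *Tapbp* at 0.57 were not past the fold in T lineage cells of Foxn11089/1089. The levels of heavy chain RNA were therefore higher than in the control within T lineage cells as well. Among the assigned subsets *B2m* was highest in macrophage cells, 18, 34 and 30 of them, at 723, 1038 and 1231 CPM. *Psmb8* was lower in macrophage than in T lineage cells, with 339, 191 and 211 CPM against 623, 418 and 378 CPM.

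**Figure D3:**
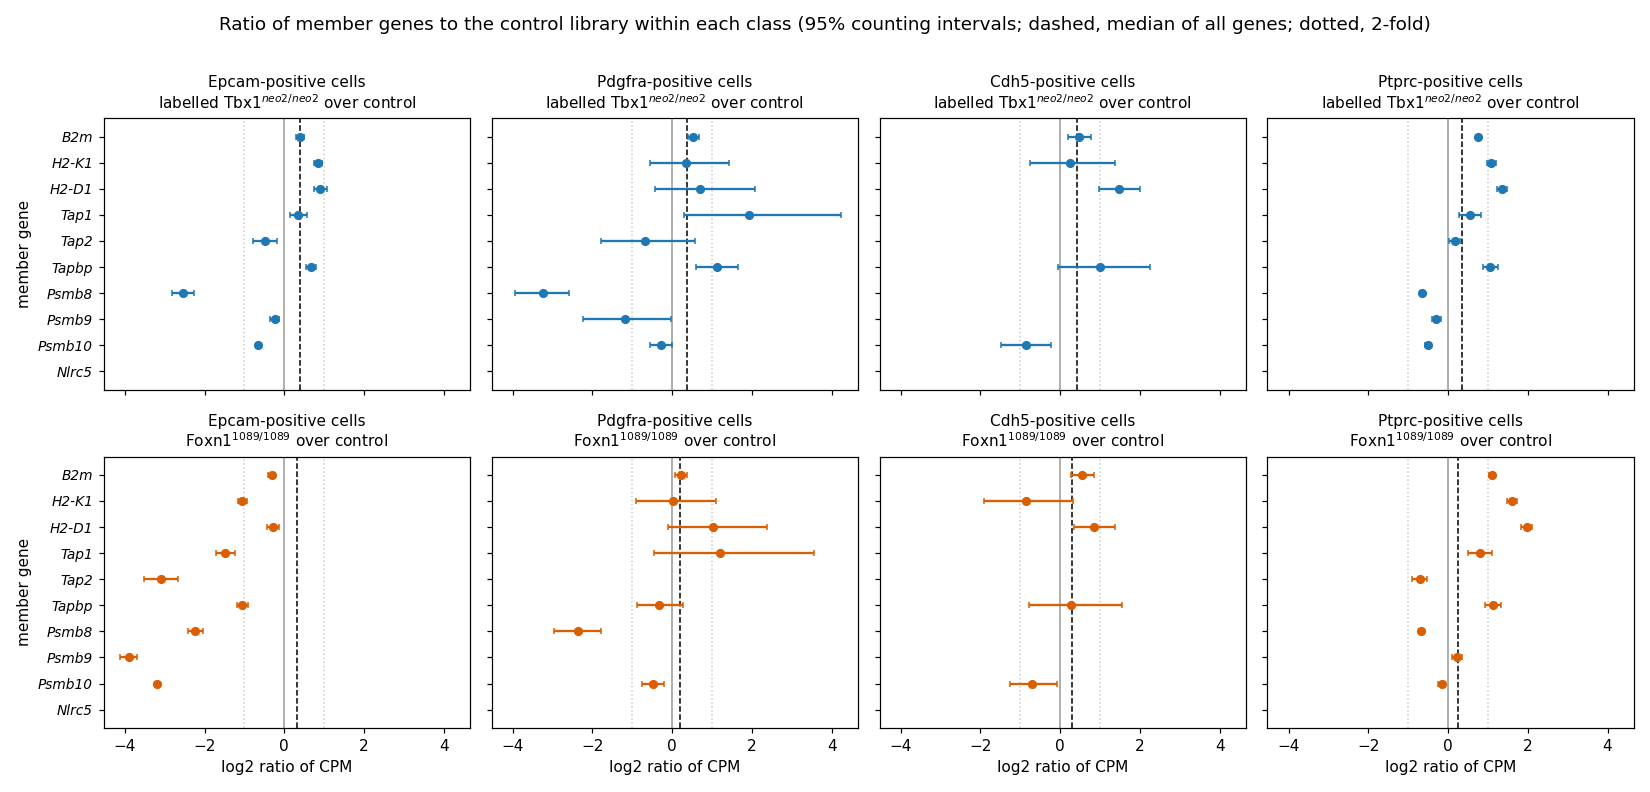
Log2 ratio of CPM to the control library (horizontal axis) for each member gene with at least 30 UMIs (vertical axis), by class and genotype, with exact conditional binomial 95% intervals; dashed lines mark the median of all genes and dotted lines 2-fold. In Epcam-positive cells of Foxn11089/1089 Psmb9 lies at -3.90 and Psmb10 at -3.20, while in Ptprc-positive cells of the same library H2-D1 lies at 1.97.

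Around the members, 9 lists with 99 genes of the same pathway were counted in the same fits. The shares of all genes to set them against are 27.1% higher and 32% lower in Ptprc-positive than in Epcam-positive cells, and in Foxn11089/1089 19.6% higher and 7.36% lower in Epcam-positive and 11.3% higher and 5.36% lower in Ptprc-positive cells. Of 8 peptide loading partners, 5 were higher in Ptprc-positive than in Epcam-positive cells. Leading genes were *Erap1*, a peptidase that trims peptides, at 22.5, 22.8 and 25 CPM in Ptprc-positive and 0.899, 1.08 and 0.707 CPM in Pdgfra-positive cells (log2 difference 4.96), and *Tapbpl*, a tapasin relative (4.70). In Epcam-positive cells of Foxn11089/1089, 2 partners were higher and 2 lower, and in Ptprc-positive cells 2 were higher. *Calr*, a chaperone of heavy chains, stood out between libraries, with 273, 1030 and 879 CPM in Pdgfra-positive cells and a log2 ratio of 1.92 in the library labelled Tbx1neo2/neo2. Of 16 other class I-like genes, 15 were in the tables and 8 were tested between classes, with 4 higher and 0 lower in Ptprc-positive than in Epcam-positive cells. Among them, *H2-M3* was 4.82 above Pdgfra-positive cells and *H2-T23* 4.34 above Cdh5-positive cells. *Fcgrt*, the neonatal Fc receptor, was a mesenchymal gene, at 115, 66.5 and 91.8 CPM in Pdgfra-positive and 6.06, 3.35 and 34.6 CPM in Epcam-positive cells. In Foxn11089/1089, 3 of 10 class I-like genes were higher and 1 lower in Epcam-positive cells, and 2 of 6 higher in Ptprc-positive cells. Counts this small are not set apart from those shares by any test.

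Other proteasome genes were counted in the same way. The 3 constitutive catalytic subunits had 0 calls between Ptprc-positive and Epcam-positive cells with edgeR, and 0 past the fold in Epcam-positive cells of either library. *Psmb5* had 667, 424 and 353 CPM in Epcam-positive cells and *Psmb6* 460.0, 371 and 388 CPM. Their largest class differences were 0.54 for *Psmb5* (Ptprc-positive over Pdgfra-positive) and 0.40 for *Psmb6* (Epcam-positive over Pdgfra-positive). *Psmb7*, the counterpart of *Psmb10*, rose from 55.8 to 167 CPM in Cdh5-positive cells of Foxn11089/1089, at 1.58 (interval 1.15 to 2.04), and was the 1 gene of this list past the fold there and in Ptprc-positive cells of that library. It was also the 1 gene of the list past the fold, higher, in Cdh5-positive cells of the library labelled Tbx1neo2/neo2. Of 11 other 20S subunits, 8 were higher in Ptprc-positive than in Epcam-positive cells, with a median difference of 0.37, and 0 were past the fold in any of the 8 genotype comparisons. *Psma1*, at 1.28, *Psma7*, at 1.06, and *Psma2*, at 0.90, had the largest differences, over Pdgfra-positive cells. Of 5 activators and assembly factors 4 were higher in Ptprc-positive than in Epcam-positive cells, led by *Psme1*, an interferon-inducible activator subunit (3.68). *Psme2*, its partner, had 276, 129 and 81.4 CPM in Epcam-positive cells and was the 1 gene of the list past the fold there in Foxn11089/1089, at -1.76. It was also the 1 gene of the list at least 2-fold lower there in the library labelled Tbx1neo2/neo2, where 1 other was higher. *Psme4* went from 13.6 to 50.8 CPM in Cdh5-positive cells of the library labelled Tbx1neo2/neo2, at 1.90. The control value rests on few UMIs, from 50 cells. *Psme4* reached the UMIs needed for a ratio only through the library where it was higher, so no support is drawn from this value. *Psmb11*, alone in its list, had 227, 113 and 11.0 CPM in Epcam-positive cells, with log2 ratios of -1.01 and -4.38, and a log2 difference of -7.56 from Cdh5-positive over Epcam-positive cells. Cdh5-positive cells had 1, 0 and 2 UMIs of *Psmb11*.

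Genes upstream and genes of the interferon response were counted last. Of 23 regulators, 10 were higher and 2 lower in Ptprc-positive than in Epcam-positive cells, led by *Ifngr1*, a chain of the interferon gamma receptor, at 70.6, 103 and 108 CPM against 14.0, 19.4 and 11.5 CPM (2.88). *Nfkb1* was 2.91 above Pdgfra-positive cells. *Ciita*, the class II counterpart of *Nlrc5*, had 32, 54 and 29 UMIs in Epcam-positive and 0, 1 and 0 in Pdgfra-positive cells. In Foxn11089/1089, 2 regulators were higher and 3 lower in Epcam-positive cells, and 3 of 22 were higher in Ptprc-positive cells, near the all-gene 11.3%. Of 26 interferon-stimulated genes, 24 were tested between classes, and 18 were higher and 3 lower in Ptprc-positive than in Epcam-positive cells. In Epcam-positive cells of Foxn11089/1089, 16 of 23 were at least 2-fold lower and 1 higher, with a median log2 ratio of -1.51, close to that of the members. In Ptprc-positive cells of that library 4 of 24 were higher and 6 lower. In the library labelled Tbx1neo2/neo2, 5 of 24 were lower in Epcam-positive and 5 of 25 in Ptprc-positive cells (all genes, 4.57% and 2.82%). Pdgfra-positive cells had 6 of 16 lower there and 6 of 17 in Foxn11089/1089 (all genes, 3.47% and 3.92%). For Cdh5-positive cells these were 3 of 12 and 3 of 13 (all genes, 4.16% and 4.36%). At most 2 were higher in any of these added comparisons. Of the 3 genes of this list with the largest class differences, *Ifitm1* had 5255, 3676 and 1278 CPM in Ptprc-positive and 71.9, 7.75 and 7.76 CPM in Cdh5-positive cells (7.76). The others, whose fitted differences were larger, are given as UMIs because 1 class held almost none. *Zbp1* had 47, 46 and 57 UMIs in Ptprc-positive cells and 0 in Cdh5-positive cells, and *Rsad2* had 17, 40 and 105 UMIs in Cdh5-positive and 1, 1 and 0 in Pdgfra-positive cells. Of 6 cytokine ligands 1 was tested between classes and called higher in Ptprc-positive than in Epcam-positive cells, *Tnf*, with 63, 89 and 72 UMIs in Ptprc-positive and 1, 1 and 2 in Pdgfra-positive cells. *Ifng* had 5, 6 and 54 UMIs in Ptprc-positive cells, a log2 ratio of 3.75 (interval 2.44 to 5.43) in Foxn11089/1089. It reached the 30 UMIs for a ratio only through that library, where it was higher, so no support is drawn from this value.

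Members did not share 1 pattern over the 12 sums of class and library. With Pearson's r of log2 CPM as a description, since the sums share libraries, *Psmb9* and *Psmb10* were most alike (r = 0.96), followed by *H2-K1* and *Tapbp* (r = 0.95). *B2m* was least like *Psmb10* (r = 0.26) and *Tap1* (r = 0.35). Of 8490 genes with a mean of at least 10 CPM, those closest to *B2m* over the 12 sums were *Ifngr1* (r = 0.98), *Egln3*, *Nln*, *Actr3* and *Tomm34* (each r = 0.96). Those closest to *Psmb8* were *Ptprcap*, *Nkg7*, *Cd37* and *Rac2* (each r = 0.99) and *Cd48* (r = 0.98). *Psmb10* was closest to *AI413582* (r = 0.97), *Rps27l* (r = 0.95), *Psmg2* (r = 0.94), *Noc4l* and *Wdr74* (each r = 0.93).

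In the GRCm38 annotation 7 members lie on chromosome 17, 2 on chromosome 8 (*Psmb10* and *Nlrc5*) and 1 on chromosome 2 (*B2m*, ENSMUSG00000060802). *Psmb9*, *Tap1*, *Psmb8* and *Tap2* follow one another within 34.3 kb, from 34181987 to 34216321. These neighbours did not move as 1 block. In Epcam-positive cells of Foxn11089/1089 their log2 ratios were -3.90, -1.48, -2.23 and -3.09, and in Ptprc-positive cells 0.22, 0.80, -0.67 and -0.71. With median-of-ratios size factors the *Psmb9* value in Ptprc-positive cells turned to -0.05.

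Promoter windows of 300 bases, 250 before to 50 after a start, were matched for 8 members in RefSeq GRCm38.p6. *Tap2* and *Nlrc5* had no entry among the windows at hand, though both are annotated genes. GAAANNGAA, a motif of interferon response elements, was searched on both strands and found in 8.56% of all 32851 windows and in 1 member, *B2m*. GGGATTCCC, a kappaB-type motif, was found in 0.353% of all windows and in *H2-K1* and *H2-D1*. CCAAT stood in 37.4% of all windows and in 6 of the 8 members, and TGACG, a core of cyclic AMP response elements, in 20.8% and in 5. *Psmb10*, *Psmb8* and *Tapbp* had neither of the first pair, which says only that these letters are not in those windows. The search took these exact letters only, so variants of the motifs were not counted in any window. For example, the windows of *H2-K1* and *H2-D1* hold tttcacttc, and that of *B2m* holds gggaaagtccc. The counts therefore do not show which members lack motifs of either type. A match is a description and no site of binding. The light chain and both heavy chains are shown, with the first pair of motifs in capitals. All 3 were past the fold in Ptprc-positive cells of Foxn11089/1089, and so was *Tapbp*, whose window is not shown. There *B2m* fell short of the fold with median-of-ratios size factors (0.83) and in T lineage cells (0.78). The 3 windows shown lie at chr2:122147437-122147736 on the plus strand, chr17:34000284-34000583 on the minus strand and chr17:35262844-35263143 on the plus strand.
B2m: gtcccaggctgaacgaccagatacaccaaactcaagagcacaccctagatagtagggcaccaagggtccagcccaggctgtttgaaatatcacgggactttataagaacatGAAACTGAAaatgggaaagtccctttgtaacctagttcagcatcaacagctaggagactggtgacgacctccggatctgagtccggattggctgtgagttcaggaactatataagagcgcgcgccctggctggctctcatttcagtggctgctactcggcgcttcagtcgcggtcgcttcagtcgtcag
H2-K1: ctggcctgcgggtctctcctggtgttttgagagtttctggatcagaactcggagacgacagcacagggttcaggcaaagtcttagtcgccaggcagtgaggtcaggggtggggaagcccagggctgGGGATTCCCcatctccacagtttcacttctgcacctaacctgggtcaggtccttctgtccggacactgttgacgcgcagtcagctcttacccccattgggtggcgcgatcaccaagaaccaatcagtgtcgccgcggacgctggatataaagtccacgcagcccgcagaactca
H2-D1: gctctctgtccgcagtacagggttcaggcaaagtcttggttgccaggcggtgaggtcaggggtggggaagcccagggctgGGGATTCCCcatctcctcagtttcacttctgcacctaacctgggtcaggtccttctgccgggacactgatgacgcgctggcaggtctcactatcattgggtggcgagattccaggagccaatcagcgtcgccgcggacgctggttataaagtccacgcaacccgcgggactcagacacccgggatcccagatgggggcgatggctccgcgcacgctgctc

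*Tap1* and *Psmb9* are shown because these annotated starts lie close together in opposite directions, so that their windows share 275 bases, on opposite strands. They hold none of the motifs set in capitals. The windows lie at chr17:34187306-34187605 on the plus strand and chr17:34187281-34187580 on the minus strand. Counts near the 3′ end do not tell which start a transcript came from, and the use of these starts was not tested.
Tap1: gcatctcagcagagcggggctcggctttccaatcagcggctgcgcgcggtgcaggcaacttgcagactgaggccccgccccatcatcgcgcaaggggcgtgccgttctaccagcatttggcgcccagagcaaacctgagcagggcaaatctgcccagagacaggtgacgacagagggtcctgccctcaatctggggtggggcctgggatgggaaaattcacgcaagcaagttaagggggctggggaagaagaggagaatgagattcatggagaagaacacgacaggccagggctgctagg
Psmb9: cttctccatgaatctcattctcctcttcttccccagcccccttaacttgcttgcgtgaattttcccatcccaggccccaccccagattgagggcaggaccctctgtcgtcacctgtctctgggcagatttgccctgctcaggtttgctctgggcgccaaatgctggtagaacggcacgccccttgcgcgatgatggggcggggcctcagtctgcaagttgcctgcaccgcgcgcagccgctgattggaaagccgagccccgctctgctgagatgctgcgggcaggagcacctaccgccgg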

How the data were processed

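The authors deposited UMI counts per gene and cell barcode for 3 libraries of droplet 3′ single-cell RNA, made with Cell Ranger 3.0.0 on mm10; the labels also name Seurat, of which no output was used. The deposited counts are raw, for called cells only. Libraries held 82936619, 137498422 and 204655055 UMIs, with medians of 12470, 19774 and 14027 per barcode, so a level of 1 CPM in a class rests on few UMIs wherever the class is small. Sums, ratios, intervals and figures were made in Python 3.11.15 (scanpy 1.11.5 with Scrublet, matplotlib 3.10.9, pandas 2.3.3, scipy 1.17.1, numpy 2.4.6). R 4.3.3 with edgeR 4.0.16 (TMM factors, filterByExpr, quasi-likelihood tests, Benjamini-Hochberg over all genes tested, no prior fold) was used for 6 pairs of classes. The code was tested on simulated data, where edgeR recovered 8.16% of 2-fold and 85% of 4-fold changes between Ptprc-positive and Epcam-positive cells, so small class differences may be missed.

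All 10 members are named. Like genes are the 5 with the highest Pearson r of log2(CPM + 1) for *B2m*, *Psmb8* and *Psmb10*. From each list, the 3 genes with the largest difference or ratio among those called or past the fold are named. The members and lists were chosen with earlier results of these data known.

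Other settings tried numbered 21: other class rules, a mitochondrial limit of 10%, likely doublets (the highest Scrublet scores) or cells under 2000 UMIs left out, cells thinned to 2000 UMIs, median-of-ratios factors, no filter on low counts, DESeq2 1.42.0, no replicate block, each library left out, mean of per-cell CPM, and no thinning. After seeing the data 3 were added: parathyroid and thyroid cells left out, for both kinds of comparison, and cortical or T lineage cells alone. A cell joined a subset by the marker list it held most of, with at least 2 of its genes, and ties joined none. Cells with under 200 genes or with 20% or more mitochondrial UMIs were left out as low in quality.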

Additional observations from a re-analysis of the deposited data

Results flagged for a closer look

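Under the same contrast, Foxn11089/1089 over control, 2 members were at least 2-fold higher in one class and at least 2-fold lower in another. *H2-K1* had a log2 ratio of 1.61 in Ptprc-positive cells and -1.05 in Epcam-positive cells, a difference of 2.67. *Tapbp* had 1.12 and -1.05, a difference of 2.17. With median-of-ratios factors *Tapbp* in Ptprc-positive cells was 0.85, in T lineage cells alone 0.57, and in cortical cells alone *H2-K1* was -0.77 and *Tapbp* -0.86, all short of 2-fold. The kinds of epithelial and hematopoietic cells also differed between these libraries. With 1 library for each genotype, these differences between cell classes were not tested.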

How the results depend on the processing

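Of the log2 differences between classes, 713 alternative values kept their direction and their side of the threshold, 37 lost the call, 6 gained it and 0 reversed. Of the log2 ratios between genotypes 369 stayed within their interval, 174 moved out of it and 2 reversed, meaning that the sign changed and a ratio was past 2-fold before or after. Another 26 values changed sign short of the fold. *Psmb9* in Pdgfra-positive cells of the library labelled Tbx1neo2/neo2 turned to 0.39 when 1 UMI of a marker was enough, and *H2-D1* in Pdgfra-positive cells of Foxn11089/1089 turned to -0.30 when the other markers had to be 0.

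Members lower in Cdh5-positive than in Epcam-positive cells numbered 4, but 2 with the other markers at 0 and 1 after thinning; leaving out 1 library gave 1 to 5. Members higher in Cdh5-positive than in Pdgfra-positive cells numbered 5, but 2 when 1 UMI was enough, 1 after thinning, 3 without the replicate block, and 3 to 6 with 1 library left out. Epcam-positive over Pdgfra-positive cells gave 0 lower, but 1 with DESeq2 (*B2m*, -0.58), and 0 to 1 with 1 library left out. Single calls also changed. *Tap1* was not called in Ptprc-positive over Epcam-positive cells after thinning (1.21), nor *Tapbp* over Cdh5-positive cells (1.47). In Cdh5-positive over Pdgfra-positive cells *Tap2* lost its call with the other markers at 0 (2.04), with 1 UMI enough (1.08), without doublets (2.21), after thinning (3.43) and without the replicate block (2.04). *Tapbp* lost it with 1 UMI enough (0.64), after thinning (1.82), without parathyroid and thyroid cells (1.22) and without the replicate block (1.12), *H2-K1* with 1 UMI enough (0.81) and after thinning (3.74), and *B2m* after thinning (0.97). With 1 UMI enough, *H2-D1* was called higher in Ptprc-positive than in Cdh5-positive cells (0.998) and *Psmb8* lower in Cdh5-positive than in Epcam-positive cells (-1.28).

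For the library labelled Tbx1neo2/neo2, Epcam-positive cells had 0 higher, but 1 when 1 UMI was enough, 1 after thinning, and 2 both without parathyroid and thyroid cells and in cortical cells alone; they had 1 lower, but 0 when 1 UMI was enough and 2 with median-of-ratios factors. Pdgfra-positive cells had 2 higher, but 4 when 1 UMI was enough, 3 without doublets and 1 after thinning or with median-of-ratios factors, and 2 lower, but 0 when 1 UMI was enough, 0 after thinning and 1 without doublets or by per-cell means. Cdh5-positive cells had 1 higher, but 2 with the other markers at 0, 4 when 1 UMI was enough and 2 by per-cell means, and 0 lower, but 1 with median-of-ratios factors. Ptprc-positive cells had 3 higher, but 1 with median-of-ratios factors and 2 under either other marker rule, after thinning, in T lineage cells alone or by per-cell means. With 1 UMI enough, 19.6%, 19.2%, 27.3% and 20.5% of all genes were higher in Epcam-, Pdgfra-, Cdh5- and Ptprc-positive cells. Lower were 3.56%, 3.36%, 3.24% and 2.49%.

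For Foxn11089/1089, Epcam-positive cells had 7 lower, but 5 when 1 UMI was enough, 6 of 8 tested after thinning and 5 in cortical cells alone. Pdgfra-positive cells had 2 higher, but 1 with the other markers at 0 or median-of-ratios factors and 0 after thinning or by per-cell means, and 1 lower, but 2 with the other markers at 0 and 0 after thinning. Cdh5-positive cells had 0 higher, but 1 with the other markers at 0 or after thinning, and 0 lower, but 2 when 1 UMI was enough and 1 with median-of-ratios factors. Ptprc-positive cells had 4 higher, but 2 in T lineage cells alone or with median-of-ratios factors and 3 under either other marker rule. With 1 UMI enough, 20.7%, 13%, 16.1% and 24% of all genes were higher in Epcam-, Pdgfra-, Cdh5- and Ptprc-positive cells. Lower were 8.21%, 4.17%, 4.23% and 5.16%.

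Without thinning the shares of cells with any member were 92.7%, 96.7% and 76.5% of Epcam-positive, 55.5%, 92.4% and 72.4% of Pdgfra-positive, 88.0%, 95.7% and 98.1% of Cdh5-positive and 100% of Ptprc-positive cells. With the other markers at 0, thinned shares in the library labelled Tbx1neo2/neo2 were 62.7% of Cdh5-positive and 90.2% of Ptprc-positive cells. Where a value changed, the cause was not tested. Thinning leaves few UMIs, and depth limits every statement on Cdh5-positive cells and on members of Pdgfra-positive cells other than *B2m*.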
